A study of Macaca fascicularis with 6 samples.

Results

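Genes that encode targets of asthma drugs, or close relatives of such targets, were described by name, and 8 of 9 names were found among the 28623 genes of the count tables. They were CHRM2 (ENSMFAG00000029546), CYSLTR1 (ENSMFAG00000029916), CYSLTR2 (ENSMFAG00000026328), HRH1 (ENSMFAG00000030336), NR3C1 (ENSMFAG00000039004), PTGDR2 (ENSMFAG00000028688), PDE4B (ENSMFAG00000000162) and PDE4D (ENSMFAG00000041776). Each was chosen by its symbol and matched 1 row. CHRM3 is not listed by symbol and was not analysed here. Lung cells of 6 male cynomolgus monkeys aged 3 to 5 years were counted by droplet-based single-cell RNA sequencing, 1 library per monkey. The 3 monkeys of the asthma group (replicates 8, 10 and 11) were sensitized with Ascaris suum antigen at 1 mg/mL under the skin and challenged through the nose at 10 mg/mL, and the 3 of the control group (replicates 1, 2 and 3) received saline. Lungs were taken in week 11. The tissue was dissociated lung, and the muscle cells that many of these drugs act on were few, with 5, 5 and 39 smooth muscle-like cells in the control libraries and 6, 2 and 13 in the asthma libraries.

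Bronchial muscle tightens when acetylcholine, histamine or cysteinyl leukotrienes bind their receptors. CHRM2 encodes the muscarinic M2 receptor, HRH1 the histamine H1 receptor, CYSLTR1 the receptor blocked by montelukast and CYSLTR2 the second cysteinyl leukotriene receptor. PTGDR2 encodes the prostaglandin D2 receptor of type 2 lymphocytes, eosinophils and basophils. NR3C1 encodes the glucocorticoid receptor, through which inhaled steroids act in the nucleus. PDE4B and PDE4D encode phosphodiesterases that break down cAMP and are inhibited by roflumilast.

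After quality control 24235 cells were kept, with total UMIs (unique molecular identifiers, counted once per captured transcript) of 34526867, 24593874 and 27453752 for the control group and 30173065, 32347260 and 25388639 for the asthma group. Values per library are always given in the order of the replicates, which is 1, 2, 3 for control and 8, 10, 11 for asthma. Pairs of libraries shared 5 to 13 cell barcodes. Cells were grouped into 11 classes named from fixed markers, and names end in -like because the groups were rebuilt here. The 8 genes and their pathway genes were kept out of the variable genes, so that clustering did not use them. MC-like cells were named from MSLN, UPK3B and ITLN1, which are also known as markers of mesothelium. Of the macrophage-like cells, 548 formed a sub-cluster led by EREG and FER1L6, and 530 of these came from control replicate 1. A level is given in CPM, the usual scaling of the UMIs of a gene by all UMIs counted, both summed over the cells of a library and class, for libraries with at least 10 such cells. Levels are set side by side between cell types of the same gene, and not between genes. Over whole libraries, summed UMIs in the order given above were 4706, 3042, 3505, 4382, 3677 and 4153 for NR3C1 and 2413, 1698, 1754, 1165, 1729 and 2461 for PDE4B. CYSLTR1 had 1027, 558, 623, 799, 672 and 599 UMIs, and CYSLTR2 had 500, 209, 232, 329, 259 and 168. PDE4D had 272, 253, 284, 231, 201 and 191 UMIs, and HRH1 had 58, 25, 34, 53, 73 and 48. CHRM2 (37 UMIs in all) and PTGDR2 (7 UMIs in all) were near the limit of detection.

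Among the receptors of contractile signals, CHRM2 was counted in stromal-like cells, where 34 of its 37 UMIs lay, and the rest in cells left out of the classes because they carried markers of several. Its level in stromal-like cells was 0, 0 and 2.11 CPM in the control libraries and 2.23, 2.93 and 7.04 CPM in the asthma libraries. The values of control replicate 3 and asthma replicates 8 and 10 rest on 4 UMIs each, and that of asthma replicate 11 on 22. Control replicates 1 and 2 had 0 CHRM2 UMIs among 729968 and 804280 UMIs of stromal-like cells. At 3 UMIs, a level there would lie above those of asthma replicates 8 and 10, so no order of the groups is given. Within the class, 20 UMIs came from pericyte-like cells, the mural cells of small vessels, at 76.2 CPM in asthma replicate 10 and 55.9 CPM in asthma replicate 11. Pericyte-like cells numbered 7, 25 and 124 in the asthma libraries and 1, 0 and 1 in the control libraries. The 4 UMIs of control replicate 3 and the 4 of asthma replicate 8 lay in other stromal-like cells. The part of pericyte-like cells in the class value was not tested. A sub-cluster led by ASIP and ITGA8 had 5 UMIs, SOSTDC1 myofibroblast-like cells had 7, and smooth muscle-like cells had 1. CHRM2 passed the filter on low counts in no class and was not tested.

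HRH1 was highest in stromal-like cells at 4.31 ± 2.41 CPM (SD, n = 6 libraries) and in macrophage-like cells at 3.21 ± 0.756 CPM, which did not differ beyond their spread (difference within libraries 1.11 ± 2.60 CPM, n = 6). Macrophage-like cells held 36.9% of all UMIs and 70.8% of the HRH1 UMIs. A UMI was found in 5.50% of 3470 macrophage-like cells (95% Wilson interval 4.79 to 6.31%), at a median depth of 18264 UMIs, and in 1 of 10157 T and NK-like cells, at a median depth of 3659 UMIs. When cells were thinned to 1000 UMIs the shares were 0.376% and 0.00195%. Among subtypes, the stromal sub-cluster led by SEMA3G and TMEM88 was highest, at 8.87, 14.1 and 9.28 CPM in the asthma libraries, the only libraries with at least 10 of its cells. Larger-vessel endothelial cell (EC)-like cells had 5.88 ± 6.52 CPM (n = 6), and interstitial macrophage-like cells 5.13 ± 1.93 CPM (n = 6). MCTP1, AMIGO2 and HOMER3 had the profiles over 41 subtypes most like that of HRH1, with Pearson r of 0.82, 0.77 and 0.77. B-like, dendritic-like and epithelial-like cells had no HRH1 UMI, which for the 850 epithelial-like cells allows a share of cells with a UMI of up to 0.353%, counting error only.

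The cysteinyl leukotriene receptors differed in where they were counted. CYSLTR1 was spread over many classes and led in MC-like cells (59.4 ± 13.1 CPM, n = 6) and B-like cells (58.9 ± 14.9 CPM, n = 6), and these did not differ beyond their spread. In B-like cells its level was 75.7, 61.0 and 60.5 CPM in the control libraries and 45.6, 73.0 and 37.6 CPM in the asthma libraries, and the groups overlapped. B-like cells were above monocyte-like cells (31.3 ± 10.8 CPM) in 6 of 6 libraries, by 27.6 ± 14.0 CPM. Stromal-like (27.4 ± 7.98 CPM), macrophage-like (25.7 ± 5.30 CPM) and plasma-like cells (24.8 ± 7.77 CPM, n = 5) followed without neighbours differing beyond their spread, and dendritic-like cells (5.94 ± 2.57 CPM) and epithelial-like cells (6.78 ± 9.85 CPM) were at the low end. Epithelial-like cells were above dendritic-like cells in 2 of 6 libraries, 1 of them control replicate 3 at 26.3 CPM. The highest subtype was pericyte-like cells, at 152 and 158 CPM in asthma replicates 10 and 11.

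CYSLTR2 led in macrophage-like cells, which held 75.1% of its UMIs. Its level there was 23.7, 18.3 and 23.4 CPM in the control libraries and 23.5, 13.8 and 14.4 CPM in the asthma libraries, so asthma replicate 8 lay among the controls. Macrophage-like cells were above monocyte-like cells (4.83 ± 1.87 CPM) in 6 of 6 libraries, by 14.7 ± 3.86 CPM, and after these no neighbours in the order differed beyond their spread. MC-like cells, where CYSLTR1 was high, had no CYSLTR2 UMI in 614 cells, which allows a share of up to 0.489%. The sub-cluster led by EREG and FER1L6 gave 337 of the 500 CYSLTR2 UMIs of control replicate 1, at 29.8 CPM. Interstitial macrophage-like cells had 23.5 ± 6.90 CPM (n = 6) and alveolar macrophage-like cells 17.1 ± 7.21 CPM (n = 5). The profiles over 41 subtypes most like that of CYSLTR2 were those of KCNMB1, VSIG4 and GLDN, with Pearson r of 0.78, 0.69 and 0.67, and most like that of CYSLTR1 those of CLIP2, CRTC3 and ADK, with r of 0.66, 0.63 and 0.63.

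PTGDR2 had 1, 1 and 1 UMIs in the control libraries and 1, 0 and 3 in the asthma libraries. Of these 7 UMIs, 5 lay in monocyte-like and 2 in T and NK-like cells. None lay in the 99 mast-like cells, which allows a share of cells with a UMI of up to 3.03%. A difference between groups was not detectable at this depth.

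NR3C1 was counted in every class, and in every library of each class but the mast-like cells of control replicate 3, of which there were 5. Its level was highest in stromal-like cells, at 292, 266 and 236 CPM in the control libraries and 284, 310 and 345 CPM in the asthma libraries, with overlapping groups. Granulocyte-like cells followed at 219 ± 51.6 CPM (n = 6), lower in 5 of 6 libraries by 70.2 ± 50.9 CPM. Mast-like cells had 176 ± 51.1 CPM over the 2 libraries with at least 10 of them. T and NK-like cells (171 ± 25.2 CPM) and MC-like cells (154 ± 34.9 CPM) did not differ beyond their spread. Epithelial-like (125 ± 20.8 CPM), monocyte-like (108 ± 11.6 CPM), B-like (106 ± 19.2 CPM), macrophage-like (99.6 ± 15.3 CPM) and dendritic-like cells (85.7 ± 18.5 CPM) formed a run in which no neighbours differed beyond their spread. Plasma-like cells were lowest at 43.3 ± 15.9 CPM, below dendritic-like cells in 5 of 5 libraries.

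Pericyte-like and capillary EC-like cells had the highest mean NR3C1 levels of the subtypes. Pericyte-like cells had 787 and 793 CPM in asthma replicates 10 and 11. Capillary EC-like cells had 716 CPM in control replicate 2 and 454, 379 and 472 CPM in the asthma libraries. Larger-vessel EC-like cells, at 249 ± 29.6 CPM (n = 6), lay below the mean of the stromal class. In T and NK-like cells, a sub-cluster led by ZNF407 and AHNAK had 275 ± 51.7 CPM (n = 6). Its median depth of 2209 UMIs per cell was the lowest of the T and NK-like sub-clusters, and 7SK was among its leading genes. The part of RNA quality in its values was not tested. The 3 genes whose profile over 41 subtypes was most like that of NR3C1 were LUC7L3, PJA2 and ZFX, each with a Pearson r of 0.85, as a description over subtypes that share libraries.

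PDE4B led in granulocyte-like cells, at 1283, 533 and 661 CPM in the control libraries and 529, 678 and 764 CPM in the asthma libraries. The groups overlapped, and control replicate 1 stood above the other 5 libraries. Granulocyte-like cells were above monocyte-like cells (197 ± 83.7 CPM) in 6 of 6 libraries, by 545 ± 211 CPM, and monocyte-like were above dendritic-like cells (91.3 ± 34.6 CPM) in 5 of 6. Granulocyte-like cells had few UMIs (median 1005 per cell), and after thinning to 1000 UMIs, which left 847 of 1657 cells, 40.7% had a PDE4B UMI against 18.0% of monocyte-like and 2.84% of macrophage-like cells. The unthinned shares were 43.3%, 62.2% and 26.6%. MC-like cells (10.7 ± 3.73 CPM) were the lowest class with 6 libraries. Outside blood cells, capillary EC-like cells had 327 ± 44.6 CPM (n = 4, control replicate 2 and the asthma libraries), beside fibroblast-like cells at 10.1 ± 4.94 CPM (n = 6). The stromal sub-cluster led by SEMA3G and TMEM88 was also high, with values given below. C16orf72, DAZAP2 and KDM6B had the profiles most like that of PDE4B, with Pearson r of 0.81, 0.80 and 0.80 over 41 subtypes.

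PDE4D had another distribution, with 69.0% of its UMIs in T and NK-like cells and 11.5% in epithelial-like cells. T and NK-like cells had 24.9 ± 4.93 CPM and epithelial-like cells 20.9 ± 8.79 CPM (n = 6 each), which did not differ beyond their spread. Stromal-like cells followed at 7.59 ± 0.986 CPM, below epithelial-like cells in 5 of 6 libraries. Macrophage-like cells had 0.455 ± 0.241 CPM and granulocyte-like cells 0.310 ± 0.758 CPM, so PDE4D was nearly uncounted in the class where PDE4B led. The sub-cluster led by ZNF407 and AHNAK, of low depth as given above, was again high, at 40.8 ± 17.1 CPM (n = 6). DAPK2, FOCAD and RNF167 had the most similar profiles, with Pearson r of 0.77, 0.75 and 0.74.

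**Figure D1:**
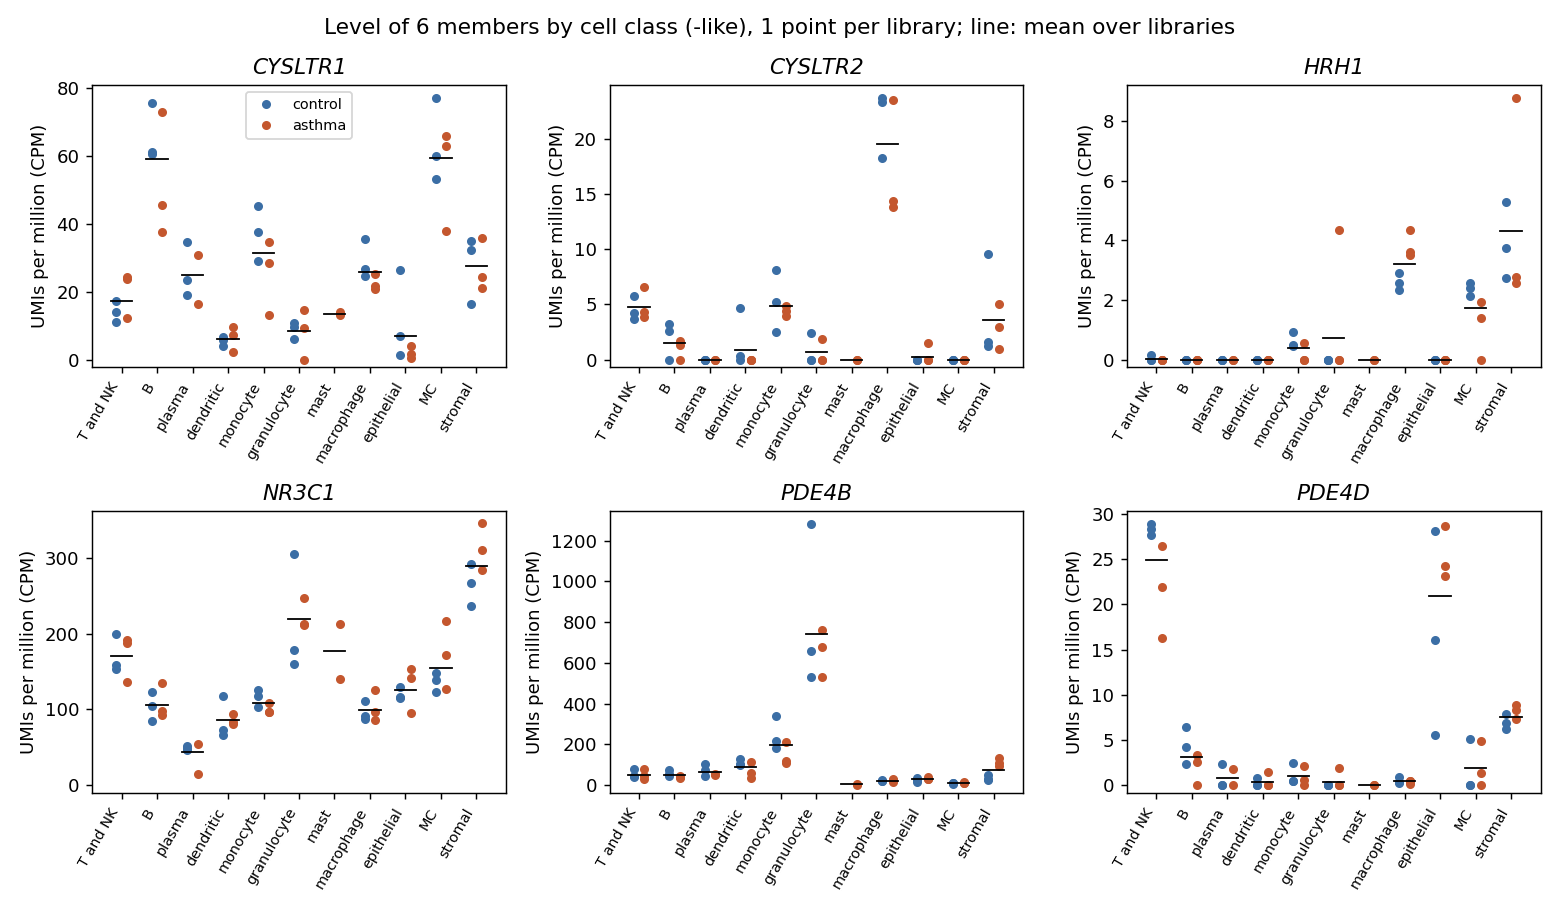
Level of CYSLTR1, CYSLTR2, HRH1, NR3C1, PDE4B and PDE4D in CPM (y axis) by cell class (x axis), with 1 point per library holding at least 10 cells (blue control, orange asthma) and a line at the mean. CYSLTR2 stands out in macrophage-like cells (19.5 ± 4.67 CPM), PDE4B in granulocyte-like cells (741 ± 280 CPM), and PDE4D in T and NK-like and epithelial-like cells.

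**Figure D2:**
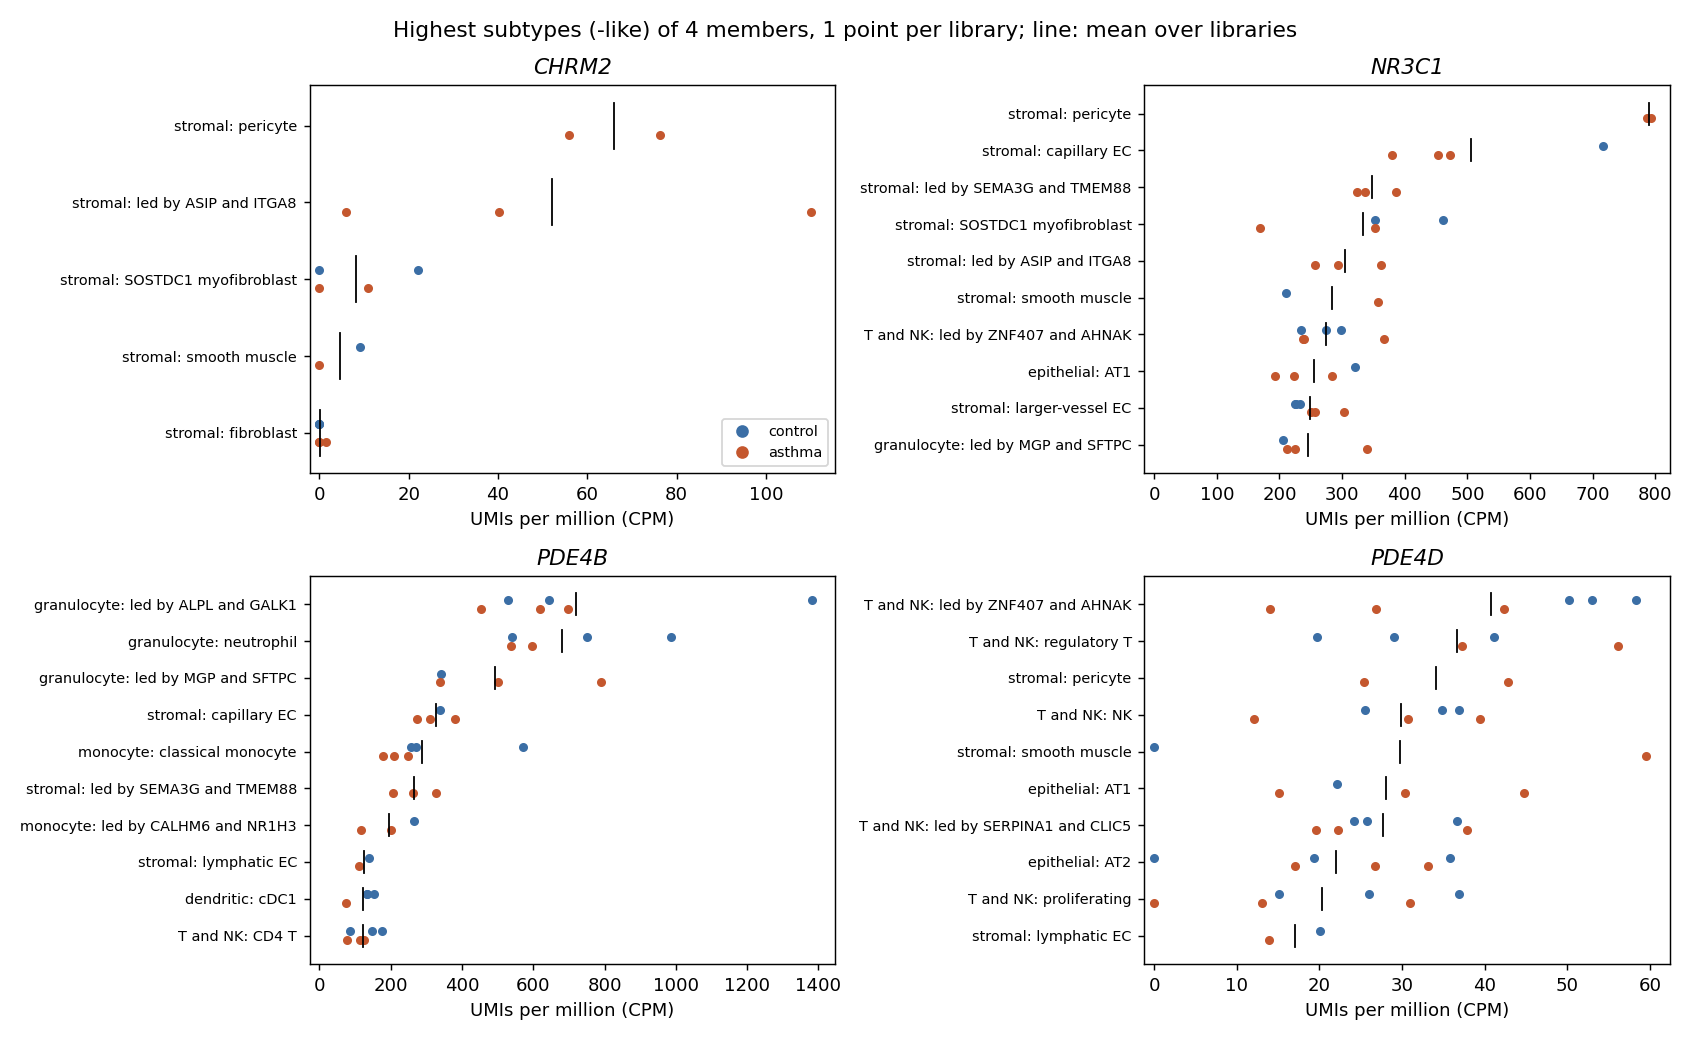
Subtypes with the highest mean level of CHRM2, NR3C1, PDE4B and PDE4D, in CPM (x axis), 1 point per library with at least 10 cells (blue control, orange asthma) and a line at the mean. Pericyte-like cells lead for CHRM2 and NR3C1, with points from asthma libraries alone because control libraries held at most 1 such cell.

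The second question was whether the levels differed between the asthma and control groups. UMIs were summed per library and class and tested with the edgeR quasi-likelihood test, with Benjamini-Hochberg adjustment over all genes of a fit and a call at an adjusted p under 0.05 with an absolute log2 fold change over 0.25. A gene that passed the filter on low counts in a class gave 1 test, which made 32 tests of 6 of the 8 genes in 10 classes. PDE4B in stromal-like cells was the 1 call among them, where 0.255% of all 70522 tests over the 10 class fits were called. An unadjusted p under 0.05 was found for 5 of the 32, and for 7.57% of all these tests. In 24 subtypes none of 59 tests was called, where 0.0354% of all tests were, and 11 of the 59 had an unadjusted p under 0.05, beside 5.20% of all tests. Over whole libraries none of 6 tests was called, where 0.0839% of 14306 genes were, and 1 of the 6 had an unadjusted p under 0.05, beside 12.9% of all genes. DESeq2 called none in these last 2 sets.

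PDE4B in stromal-like cells was higher in the asthma group. Its level was 50.7, 26.1 and 31.7 CPM in the control libraries and 109, 135 and 93.1 CPM in the asthma libraries. Every asthma library lay above every control library, with means of 112 ± 21.0 against 36.2 ± 12.9 CPM (SD, n = 3 each). The log2 fold change was 1.41 with a standard error (SE) of 0.26 (edgeR adjusted p = 0.0410), in a class where 1.85% of 9573 genes were called and 1.09% were called higher in asthma. The call was lost when control replicate 2, control replicate 3, asthma replicate 8 or asthma replicate 10 was left out, with log2 fold changes from 1.25 to 1.67 and adjusted p-values from 0.0249 to 0.199 over the 6 fits without 1 library.

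The make-up of the stromal-like cells moved with this difference. Capillary EC-like cells and the sub-cluster led by SEMA3G and TMEM88 had the highest PDE4B means among stromal subtypes with at least 10 cells in a library. Together they made up 8.05%, 10.3% and 3.17% of stromal-like cells in the control libraries and 49.9%, 56.8% and 30.7% in the asthma libraries. Of the listed capillary markers tested in the same fit, 4 of 8 rose (CA4, RAMP3, ADGRF5 and ADGRL2, with log2 fold changes of 4.73, 3.09, 3.09 and 2.30), and of the pericyte markers 1 of 6 (COX4I2, at 5.05). Of the fibroblast markers 2 of 9 fell (MFAP5 by 2.43 and SCARA5 by 1.57) and of the smooth muscle markers 2 of 9 (ACTG2 by 2.83 and CNN1 by 2.70). Of the SOSTDC1 myofibroblast markers 1 of 6 fell (HHIP by 2.93), a gene that led a fibroblast sub-cluster here. None of 7 larger-vessel and 6 lymphatic EC markers was called. In summed libraries, more cells of a type and more RNA per cell cannot be told apart, nor can a change in the lung and in the recovery of a cell type.

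With these 2 groups of cells left out, PDE4B in the remaining stromal-like cells had a log2 fold change of -0.64 (edgeR adjusted p = 0.615), where 0% of 8510 genes were called. These cells were chosen after the PDE4B values were seen, and since they were the richest in PDE4B and few in the control libraries, leaving them out lowers the difference by construction. Within capillary EC-like cells the level was 598, 339 and 547 CPM in the control libraries, from 8, 13 and 6 cells, and 312, 275 and 381 CPM in the asthma libraries, from 103, 124 and 95 cells. The groups overlapped. A fit with at least 5 cells per library, chosen after seeing the data, gave a log2 fold change of -0.37 (SE 0.39, edgeR adjusted p = 0.790), where 0% of genes were called. The SEMA3G-led cells had 328, 206 and 262 CPM in the asthma libraries. In control replicates 1 and 3 they had 2 and 1 PDE4B UMIs in 4 and 6 cells, under 3 UMIs, which would be 144 and 207 CPM there, so no level is compared and no test was made.

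**Figure D3:**
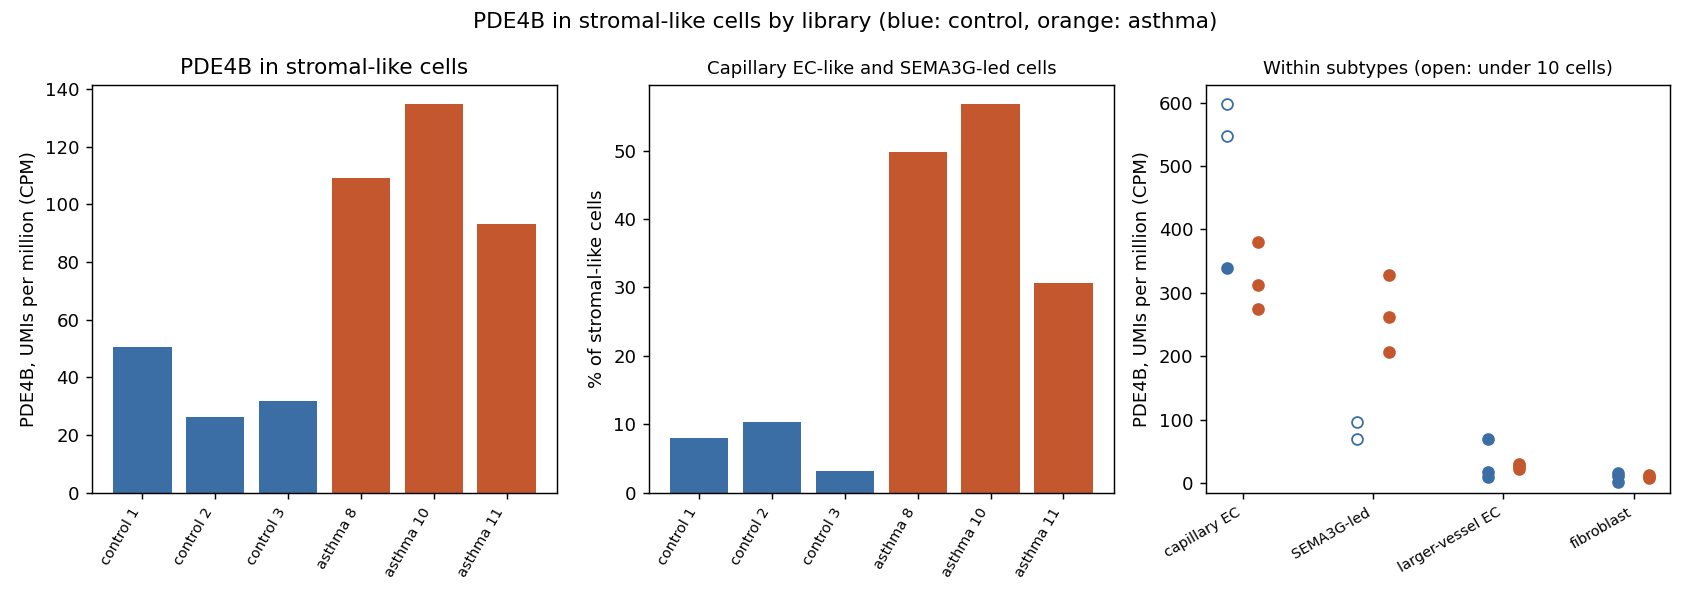
PDE4B in CPM in stromal-like cells of each library (left), the percentage of stromal-like cells that were capillary EC-like or SEMA3G-led (middle), and PDE4B in CPM within 4 stromal subtypes, 1 point per library (right, open points under 10 cells). The asthma libraries are above the control libraries in the left and middle panels, and within capillary EC-like cells the groups overlap. The open control points of the SEMA3G-led cells rest on 2 and 1 UMIs and give no order.

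In the other classes PDE4B did not pass the test. Its log2 fold change was -0.77 in dendritic-like cells, -0.77 in monocyte-like cells and -0.62 in B-like cells, and 0.26 in epithelial-like cells. Over the 15 subtypes in which it was tested, 13 values were below 0 and 2 above, from -1.44 to 0.40, and 6 had an unadjusted p under 0.05, with a smallest adjusted p of 0.794. These subtypes share libraries and are not independent. In interstitial macrophage-like cells the level was 65.5, 67.8 and 67.6 CPM in the control libraries and 44.7, 37.8 and 52.6 CPM in the asthma libraries, and the groups did not overlap. The share of all genes without overlap is not given, here or for the genes below. Absence of overlap alone is therefore not read as a difference. In classical monocyte-like cells the PDE4B level was 570, 257 and 272 CPM against 178, 208 and 249 CPM, again without overlap. These cells came from 2 sub-clusters that split by library, 1 led by CXCL3 and CXCL8 (670 cells, 553 of them control) and 1 led by OLFM1 and THBS1 (347 cells, 7 of them control, with 97.4% from asthma replicate 11). The part of this split in the difference was not tested. Immediate-early genes, which respond to stress and tissue handling, were lower in the asthma group in the same whole-library fit for 11 of 11 tested, with a median log2 fold change of -0.41 beside -0.02 over all genes and none called. By class, their median was -1.23 in epithelial-like cells. The PDE4B value there was above 0, a sign not kept over the fits without 1 library. The median was -0.61 in B-like, -0.48 in plasma-like, -0.39 in macrophage-like, -0.30 in stromal-like, -0.24 in dendritic-like and -0.22 in T and NK-like cells. In monocyte-like cells it was -0.02 (4 higher and 7 lower) and in granulocyte-like cells -0.04 (4 higher and 5 lower). In MC-like cells it was 0.22 (5 higher and 3 lower). The part of the immediate-early genes in the PDE4B values was not tested.

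PDE4D in T and NK-like cells was 28.3, 27.6 and 28.9 CPM in the control libraries and 21.9, 16.2 and 26.4 CPM in the asthma libraries. The groups did not overlap, but the log2 fold change of -0.44 (SE 0.18) did not pass the test (edgeR adjusted p = 0.688). Over whole libraries it was -0.56 (SE 0.16, edgeR adjusted p = 0.267). In the sub-cluster led by ZNF407 and AHNAK the level was 58.3, 50.2 and 52.9 CPM in the control group and 26.8, 14.0 and 42.3 CPM in the asthma group, with a log2 fold change of -0.97 (SE 0.35, edgeR adjusted p = 0.998).

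NR3C1 had log2 fold changes from -0.24 in monocyte-like cells to 0.19 in MC-like cells over the 10 classes. Over whole libraries it was -0.03 (SE 0.15), and none of these passed the test. In plasma-like cells (-0.09, SE 0.61) the NR3C1 value went below and above this range over the fits without 1 library. In nonclassical monocyte-like cells the value was -0.84 (SE 0.29, edgeR adjusted p = 0.585), the lowest of 23 subtypes, from 3 control and 2 asthma libraries. The highest was 0.61 (SE 0.27, edgeR adjusted p = 0.683), in T and NK-like cells led by IGFBP2 and SOX4. CYSLTR1 in macrophage-like cells had a log2 fold change of -0.48 (SE 0.17, edgeR adjusted p = 0.811) and in NK-like cells of 1.44 (SE 0.39, edgeR adjusted p = 0.709). CYSLTR2 in macrophage-like cells had -0.45 (SE 0.22), and HRH1 in macrophage-like cells had 0.43 (SE 0.26), at 2.89, 2.32 and 2.56 CPM in the control group and 3.60, 3.50 and 4.36 CPM in the asthma group, without overlap. Neither passed the test, with edgeR adjusted p-values of 0.880 for both. With the EREG-led cells left out, an alternative chosen after seeing the data, the values in macrophage-like cells were -0.26 (SE 0.14) for CYSLTR1, -0.17 (SE 0.27) for CYSLTR2 and 0.48 (SE 0.28) for HRH1.

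**Figure D4:**
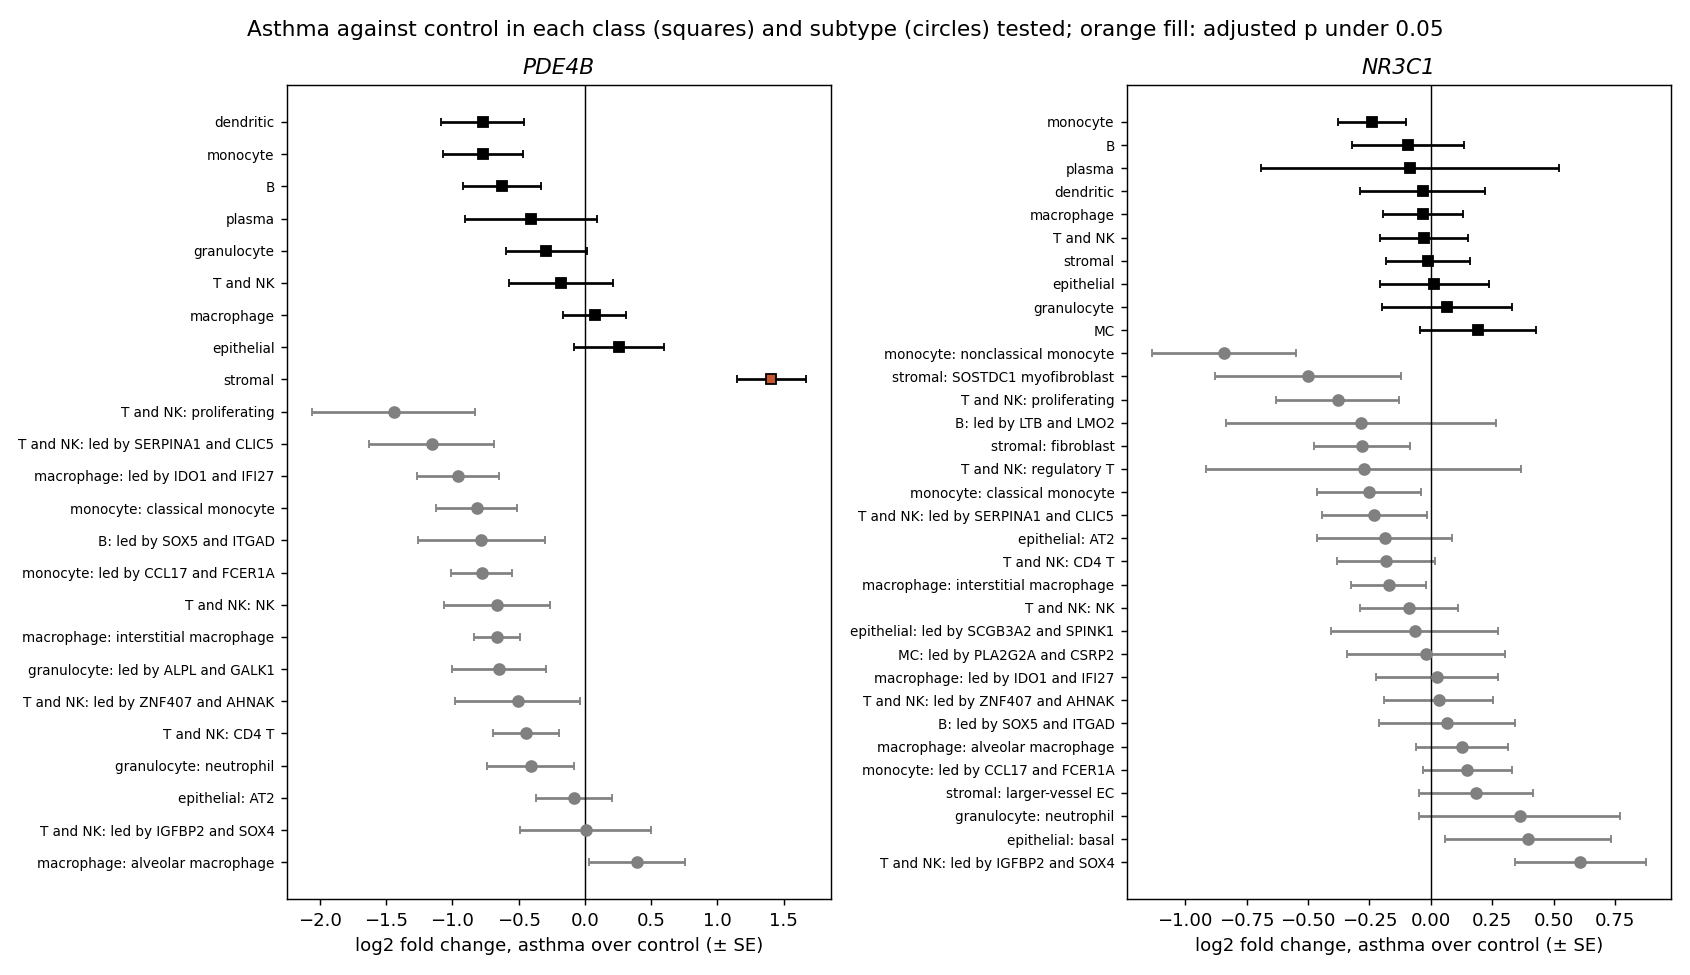
Log2 fold change of asthma over control (x axis, bars ± SE) for PDE4B (left) and NR3C1 (right) in each class (squares) and subtype (circles) tested, ordered by value within each level. PDE4B in stromal-like cells, filled orange, is the 1 call at 1.41, while 13 of 15 subtype values of PDE4B lie below 0 and NR3C1 values of classes lie between -0.24 and 0.19.

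The other genes of these pathways were read from 8 lists, which do not hold the 8 genes themselves. In the class fits 4 listed genes were called by edgeR, all in stromal-like cells, whose make-up differed as described. DESeq2 called 10, and the share of all genes it called is not given here. Among the 10 were 3 immediate-early genes in other classes. They were FOSB in B-like (-1.38), EGR1 in plasma-like (-1.87) and NR4A2 in MC-like cells (1.95), with DESeq2 adjusted p-values of 0.000111, 0.0395 and 0.0240. A sub-cluster led by NR4A1 and IL6 held 7 of 31, 8 of 46 and 14 of 49 MC-like cells in the control libraries. In the asthma libraries it held 84 of 261, 152 of 197 and 7 of 30. Of the 168 B-like cells led by LYPD1 and BCL2A1, 133 came from control replicate 1. The part of these sub-clusters in the calls was not tested. The edgeR calls were 4 of 60 listed genes tested in stromal-like cells (6.67%, beside 1.85% of all genes) and 4 of 442 tests over all class fits (0.905%, beside 0.255%). The lists were chosen with earlier results of these data known. A share above that of all genes, here or over whole libraries, is therefore no test of these pathways. SLCO2A1, a prostaglandin transporter (log2 fold change 2.67, SE 0.52), PDE3B, a cAMP phosphodiesterase (2.28, SE 0.42), and FKBP5, a glucocorticoid-induced co-chaperone of the glucocorticoid receptor (1.51, SE 0.27), rose in asthma, and ERRFI1, another glucocorticoid-induced gene, fell by 1.35 (SE 0.21), with edgeR adjusted p-values from 0.0297 to 0.0439. SLCO2A1 was also called over whole libraries, at 3.06 (SE 0.28, edgeR adjusted p = 0.0351). It was the 1 call among 76 listed genes tested there (1.32%, beside 0.0839% of all genes). Capillary EC-like cells numbered 8, 13 and 6 in the control libraries and 103, 124 and 95 in the asthma libraries. Their part in the whole-library value was not tested. Of the 6 fits that each left out 1 library, ERRFI1 lost its call in 4, SLCO2A1 and PDE3B in 5 and FKBP5 in 6, and SLCO2A1 over whole libraries in 6. By list, the stromal-like fit tested 12 of 15 glucocorticoid-induced genes (1 up and 1 down), 8 of 12 cAMP phosphodiesterases (1 up) and 6 of 9 prostaglandin D2 genes (1 up). It tested 11 of 12 glucocorticoid receptor partners, 11 of 12 immediate-early genes, 8 of 15 muscarinic and adrenergic genes, 3 of 11 leukotriene genes and 1 of 7 histamine genes, with none called. The median log2 fold change was 0.03 for glucocorticoid-induced genes and -0.30 for immediate-early genes, beside 0.01 for all genes of the fit.

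The 2 most abundant genes of each list, the 8 genes themselves not counted, in the class where the matching gene led, either did not pass the test or had too few counts to be tested. They were GNAI2 (432 ± 94.5 CPM) and RGS5 (318 ± 203 CPM) in stromal-like cells for CHRM2, and LTC4S (77.1 ± 23.2 CPM), the leukotriene C4 synthase, and MGST2 (40.1 ± 18.4 CPM) in MC-like cells for CYSLTR1. In macrophage-like cells LTA4H (927 ± 305 CPM) and ALOX5 (168 ± 43.4 CPM), the 5-lipoxygenase that starts leukotriene synthesis, stood beside CYSLTR2. HRH2 (13.9 ± 5.21 CPM), the histamine H2 receptor, and SLC18A2 (0.837 ± 0.792 CPM) were those of the histamine list in stromal-like cells. For PTGDR2 they were PTGS2 (207 ± 106 CPM), an inducible cyclooxygenase, and PTGDS (4.30 ± 3.61 CPM) in monocyte-like cells. PDE4A (9.83 ± 8.82 CPM) and PDE3B (8.46 ± 7.89 CPM) were low in granulocyte-like cells, where FOS (9232 ± 1355 CPM) and FOSB (419 ± 191 CPM) led the immediate-early genes. PDE4A (57.0 ± 10.1 CPM) and PDE7A (28.9 ± 4.70 CPM) were those of the phosphodiesterase list in T and NK-like cells. HSP90AA1 (1126 ± 203 CPM) and HSP90AB1 (797 ± 183 CPM), chaperones that hold the receptor ready for ligand, accompanied NR3C1, as did TXNIP (2896 ± 824 CPM) and DUSP1 (637 ± 186 CPM) of the glucocorticoid-induced genes (SD, n = 6 throughout).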

How the data were processed

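The authors used Cell Ranger with the macFas6 genome build and deposited raw UMI counts, by gene and cell barcode. The sources name different versions of Cell Ranger (2.1.1 in the submitters' processing notes). A barcode was kept (24235 of 35133) if it held 500 UMIs or more, a gene number above 500 and below 5000, and a mitochondrial share (37 genes) of no more than 25%. Cells were clustered with scanpy 1.11.5 and leidenalg 0.10.2 (2000 variable genes, 10 principal components, 20 neighbours, resolution 0.8). A name required 3 or more listed markers with a log2 fold of 0.75 or more that were counted in 10% or more of the cluster, thresholds chosen after seeing the data. Cells of sub-clusters that another class's markers led were not put in any class. A library entered a level or test with at least 10 cells, and a class was tested with at least 2 libraries per group, using edgeR 4.0.16 (TMM, filterByExpr, R 4.3.3) on summed counts. The methods' Wilcoxon test takes cells as replicates and served as an alternative, as did DESeq2 1.42.0, no TMM, no filter, a mitochondrial maximum of 10%, removal of 793 doublets by Scrublet score, resolution 1.6 and each library left out. The edgeR step was tested on simulated data. Intervals are 95% Wilson intervals and floors are 3 cells, for counting error only. Each library was 1 monkey. The tests set the difference between groups against the spread between libraries, in which monkey and library preparation cannot be told apart. Named were all 8 genes, listed genes that were called, the 2 most abundant genes per list in the member's leading class, and the most similar profiles (mean log2(CPM + 10) over subtypes) of each member. The members and lists were chosen with earlier results of these data known. The gene table at hand is of another assembly, so no coordinates or sequences are given.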

Additional observations from a re-analysis of the deposited data

Results flagged for a closer look

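The HRH1 level in macrophage-like cells lay above all 3 control values in each asthma library, with a difference of means (asthma minus control) of 1.23 CPM, and in MC-like cells below them, with a difference of -1.27 CPM. These opposite signs in 2 classes drew attention, and the difference between the classes was not tested. The MC-like values rest on 11 UMIs in all, 1 in each control library and 4, 4 and 0 in the asthma libraries. With fewer than 3 UMIs in every control library, the MC-like values give no direction.

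HRH1 was also counted in barcodes that failed the quality filters, at 1.91, 1.42 and 4.14 CPM in asthma replicates 8, 10 and 11 and at 0.995, 1.28 and 0.836 CPM in control replicates 1, 2 and 3. The lowest asthma value, 1.42 CPM, lies above every control value, from 4 to 21 UMIs per library in barcodes that no comparison of the report used. These barcodes came from the same libraries and were not put into classes, so they are no independent repeat of the macrophage-like values.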

How the results depend on the processing

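No paired analysis was possible because the control and asthma groups were different monkeys. The 1 class call held under DESeq2, UMI totals without TMM, no filter, a 10% mitochondrial maximum, doublets left out and resolution 1.6, with 0 to 1 calls over the fits without 1 library and 0 with the capillary EC-like and SEMA3G-led stromal cells left out (chosen after seeing the data), where PDE4B was -0.64. Without 1 library PDE4B in stromal-like cells ranged from 1.25 to 1.67. Subtype calls rose from 0 to 2 with no filter, both PDE4B (-1.14 in the SERPINA1-led T and NK-like and -0.84 in the classical monocyte-like cells, whose sub-clusters split by library). Listed genes called went from 4 to 10 under DESeq2, 3 of them immediate-early genes outside stromal-like cells, and ranged from 0 to 4 without 1 library. Small log2 fold changes that were not called changed sign. Without TMM, NR3C1 was 0.00855 in T and NK-like, 0.0212 in dendritic-like, 0.0825 in macrophage-like and 0.25 in stromal-like cells and 0.12 over whole libraries, and PDE4D in stromal-like cells was 0.20. NR3C1 in stromal-like cells was 0.0138 with no filter and 0.00223 with doublets left out, PDE4D there was 0.0141 with doublets left out, NR3C1 in B-like cells was 0.12 at resolution 1.6, and PDE4B in macrophage-like cells was -0.30 with the EREG-led cells left out (chosen after seeing the data). Without 1 library, CYSLTR2 ranged from -0.20 to 0.22 in T and NK-like cells, from -0.66 to 0.20 in monocyte-like cells. NR3C1 ranged from -0.26 to 0.0392 in B-like cells, from -0.13 to 0.14 in T and NK-like cells, from -0.18 to 0.26 in dendritic-like cells, from -0.14 to 0.18 in epithelial-like cells, from -0.0686 to 0.33 in granulocyte-like cells, from -0.18 to 0.0641 in macrophage-like cells, from -1.89 to 0.58 in plasma-like cells, from -0.12 to 0.0451 in stromal-like cells, from -0.14 to 0.0716 over whole libraries. PDE4B ranged from -0.65 to 0.19 in T and NK-like cells, from -0.10 to 0.76 in epithelial-like cells, from -0.52 to 0.12 in granulocyte-like cells, from -0.0543 to 0.30 in macrophage-like cells, from -0.68 to 0.00913 over whole libraries, and PDE4D ranged from -0.13 to 0.0465 in stromal-like cells. The causes were not tested. Each gene's leading class was unchanged under every alternative for 6 of the 8 genes. CYSLTR1 led in B-like in place of MC-like cells under 5 alternatives and PDE4D in epithelial-like cells with means over cells. Depth limited CHRM2, PTGDR2 and HRH1.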
